A study of Mus musculus with 12 samples.

Results

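The genes described here are the 34 mouse genes whose symbol starts with Clec followed by a number and a letter, out of 55487 gene models in the deposited table. They were picked by a rule on the gene symbol, set with earlier results of these data known, and most of them encode C-type lectin receptors. RNA was measured in bone-marrow-derived macrophages (BMDMs), which are macrophages grown from the marrow of C57BL/6 mice in medium conditioned by L929 fibroblasts. The mice were wild type (WT) or carried Rasgef1b-fl/fl with CMVcre (RasGEF1b-cKO, written cKO here), in which the ubiquitous CMV-driven Cre removes exons of Rasgef1b in all tissues and not in macrophages only. Mice of both genotypes were 8 to 12 weeks old. Cells of each genotype were left untreated or received 100 ng/ml Escherichia coli lipopolysaccharide (LPS) for 4 h, giving 4 groups of 3 libraries and 12 libraries in all. WT mice were supplied by an animal facility and are not described as littermates of the cKO mice, so colony and genotype cannot be told apart.

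C-type lectin receptors are surface proteins with a fold that in many members binds sugars, and they let myeloid cells sense fungi, mycobacteria and dying cells. Activating members carry, or pair with adaptors that carry, a tyrosine motif (ITAM or hemITAM) that recruits the kinase Syk and leads through Card9, Bcl10 and Malt1 to NF-kB. Inhibitory members carry another tyrosine motif (ITIM) that recruits phosphatases such as the product of Ptpn6. Members of the Clec2 group are ligands for receptors on natural killer cells, and LPS itself is sensed by a different receptor, Toll-like receptor 4.

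Values are normalized counts, that is, reads per gene divided by a library's size factor. Libraries held 19316691 to 24977356 reads. The size factors put the summed normalized counts at 16361938 to 17384975 in untreated libraries and at 25980274 to 28238994 in LPS-treated ones, although read totals were alike. For this reason a scaling to total reads moves the median log2 fold change of all genes for LPS by -0.73 in WT and -0.69 in cKO, scaling to the upper quartile by -0.26 and -0.28, and quantile normalization by -0.13 and -0.14. Each change given here is relative to the deposited scaling, and those whose direction or call turns on it are named. One library, untreated cKO replicate 2, held 5.06% of its reads on a ribosomal RNA gene model, against 0.0398% to 0.0874% in the other 11. Rasgef1b, the targeted gene, had 2072 ± 88.2 normalized counts (SD, n = 3) in untreated WT and 609 ± 77.4 in untreated cKO cells, and 12084 ± 407 and 3862 ± 297 after LPS. Of 9 macrophage marker genes, none was at 0 in all libraries, and their summed level was 219215 to 393240. In bulk samples such as these, fewer cells of a type and less RNA per cell cannot be told apart.

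Of the 34 genes, 26 lie on chromosome 6 (GRCm38, GENCODE M21 annotation), most of them in 3 groups of neighbours. The first, from Clec4a1 to Clec4e (chr6:122921848-123289870, 368 kb), has 9 members, and all but Clec4b2 reached a mean of 10 normalized counts in at least 1 group. The second, from Clec12a to Clec7a (chr6:129342691-129472779, 130 kb), has 6 members, of which 5 reached that mean, Clec1a being the exception. The third, from Clec2j to Clec2m (chr6:128652416-129331796, 679 kb), holds 8 members, and only Clec2d and Clec2i reached it. In all, 18 of the 34 genes reached that mean, 11 had reads but stayed below it in every group, and 5 had no read in any library. The 5 without a read were Clec4f, Clec2j, Clec2m, Clec18a and Clec14a. The low 11 were Clec2l, Clec4b2, Clec2h, Clec2g, Clec2f, Clec2e, Clec1a, Clec11a, Clec4g, Clec3a and Clec3b. They ranged from 1 read over all 12 libraries for Clec2h and Clec3a to 105 for Clec1a. Clec4f, Clec4g and Clec14a are known from Kupffer cells and endothelium. At this depth a count of 0 allows up to 3 reads in a library, counting error only.

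**Figure D1:**
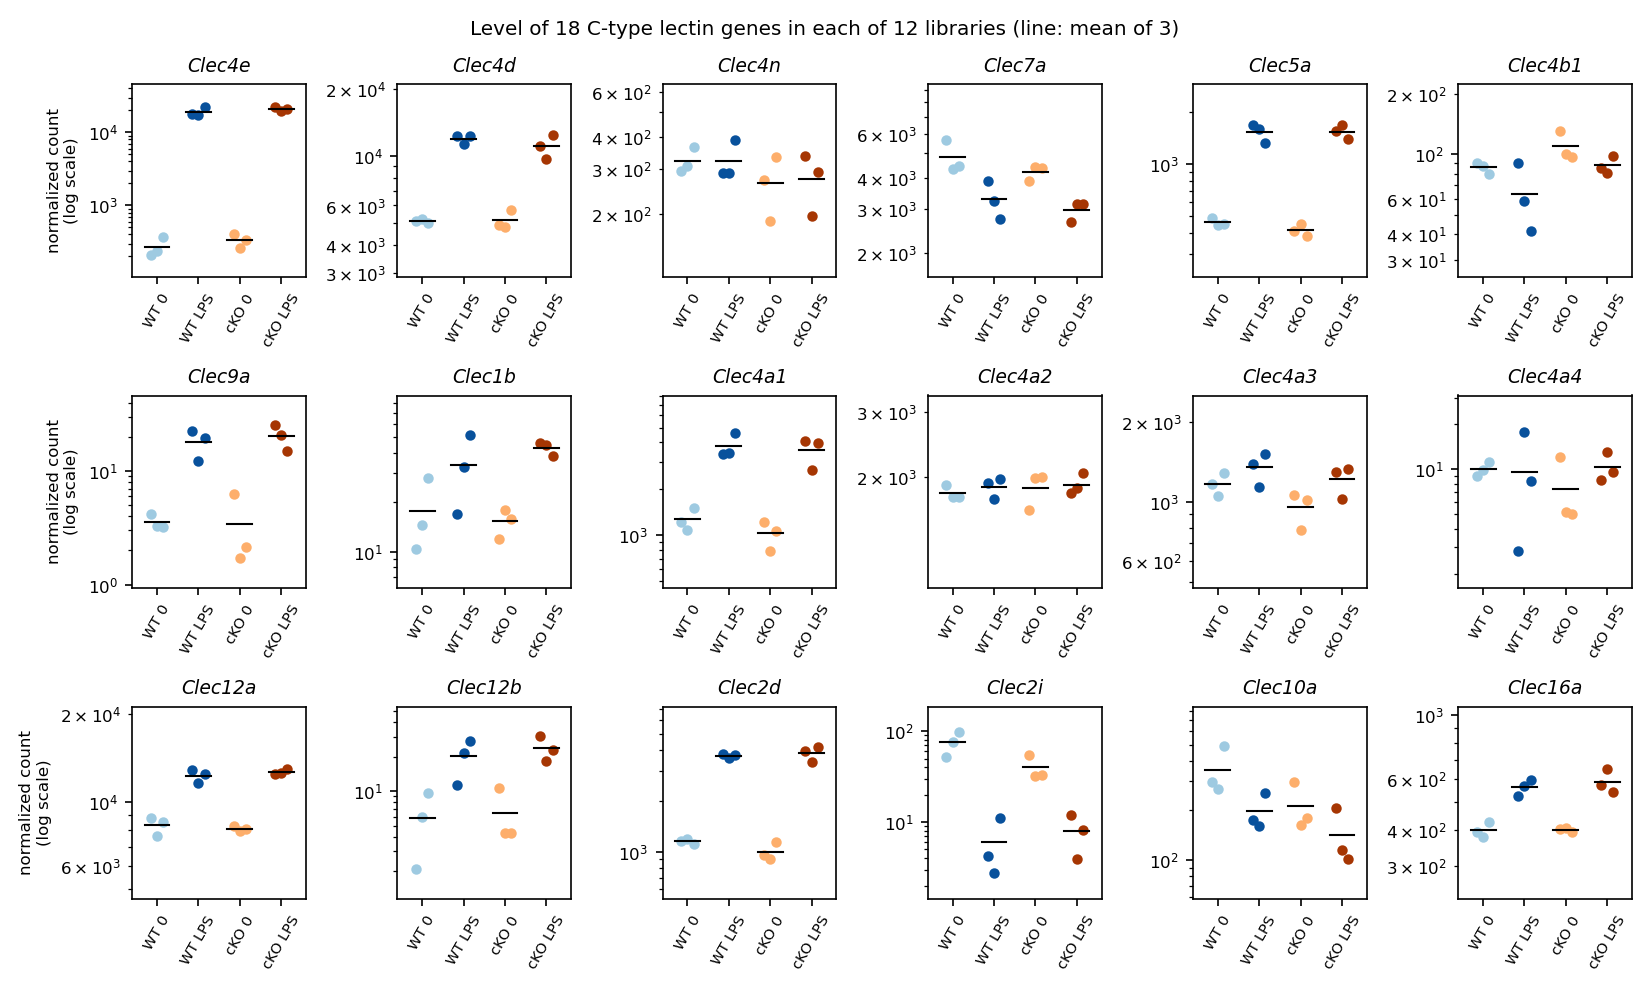
Normalized count (log axis, a separate range for each gene) of the 18 C-type lectin genes that reached a mean of 10 in some group, by group (WT or cKO, untreated written 0, or LPS); each point is 1 library, in the order of replicates 1 to 3, and the line is the group mean. The LPS points lie far above the untreated ones for Clec4e in both genotypes and below them for Clec2i, while WT and cKO points under the same treatment overlap for every gene tested except untreated Clec4b1.

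Compared per kilobase of exon, so that genes of different length can be set side by side, untreated macrophages carried most RNA of Clec4d, at 3204 normalized counts per kb in WT and 3223 in cKO. Clec7a (1827 and 1602) and Clec12a (1503 and 1459) came next, then Clec2d (951 and 824), Clec4a3 (880 and 720), Clec4a1 (810 and 658) and Clec4a2 (620 and 639). Clec4n (227 and 186), Clec10a (121 and 73.8), Clec5a (120 and 108) and Clec4b1 (110 and 140) were lower, and Clec4e stood at 54.7 and 67.1. Levels of Clec4a4, Clec12b, Clec1b and Clec9a were between 1.03 and 12.9 per kb in untreated cells. The summed level of the 34 genes was 10528 ± 442 per kb (SD, n = 3) in untreated WT and 22819 ± 1409 in LPS-treated WT cells, and 9789 ± 613 and 22480 ± 2001 in cKO cells. Clec4d made up 30.5% ± 1.84 of the sum in untreated WT and 32.8% ± 0.989 in LPS-treated WT cells. Clec4e went from 0.519% ± 0.154 of it to 16.7% ± 1.59 in WT, and from 0.685% ± 0.14 to 18.9% ± 1.1 in cKO. The share of Clec7a went from 17.3% ± 2.12 to 5.47% ± 1.07 in WT. These shares are within a library, so a single scaling factor does not alter them.

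**Figure D2:**
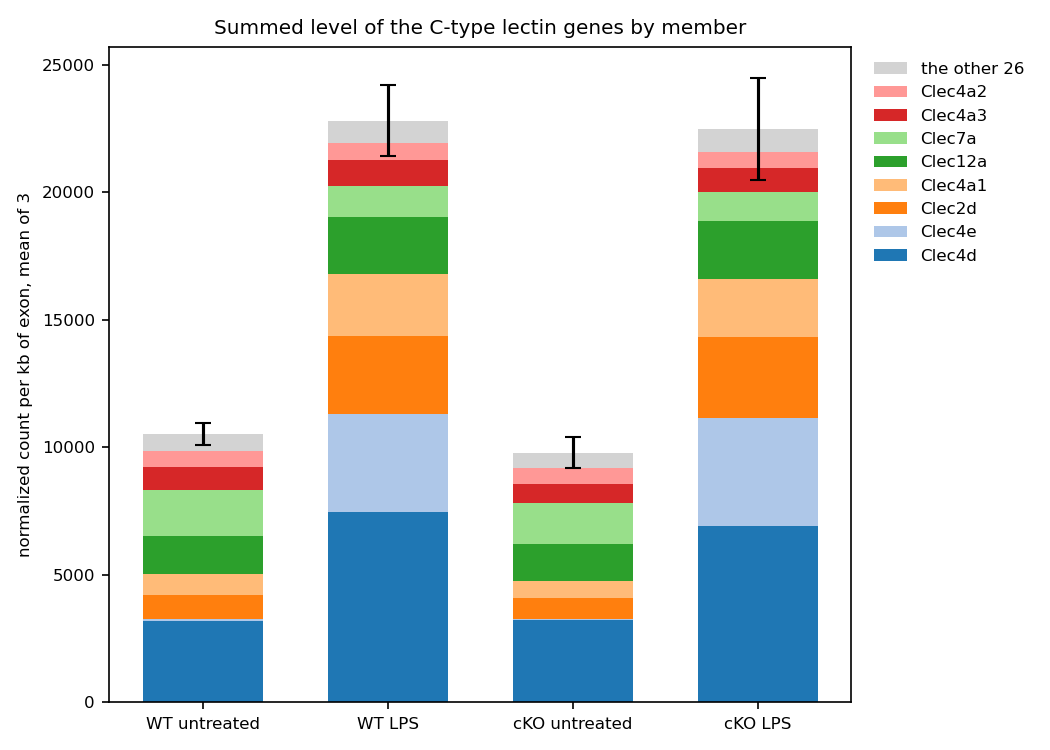
Summed level of the 34 C-type lectin genes (normalized counts per kb of exon, mean of 3 libraries, error bar SD of the sum) in the 4 groups, with 8 members shown by colour and the other 26 in grey. Clec4d is the largest block in each group, and the Clec4e block, 0.519% of the sum in untreated WT cells, is 16.7% of it after LPS.

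The first question was which of these receptors changed when macrophages met LPS. A gene was called when limma gave an adjusted p (Benjamini-Hochberg over all genes tested) under 0.05 and a change of at least 2-fold, where the mean over the libraries compared was 10 or more. In WT cells 17 of the 34 genes could be tested, and 8 were called: Clec4e, Clec4d, Clec5a, Clec9a, Clec4a1, Clec12b and Clec2d rose and Clec2i fell. Over all 12656 genes tested 33.9% were called (17.1% higher and 16.9% lower). In cKO cells the same 8 genes and Clec1b were called among 17 tested, 8 higher and 1 lower, against 33.8% of 12732 genes (17.3% higher and 16.6% lower). The median log2 fold change of the tested members was 0.57 in WT and 0.65 in cKO, beside -0.02 and -0.01 over all genes tested. On the adjusted p alone, without the 2-fold limit, 12 of 17 members passed in WT and 13 of 17 in cKO, near the 73.2% and 72.1% of all genes. Clec9a and Clec12b passed the filter on low values through their LPS-treated libraries alone and Clec2i through its untreated ones, so these genes had to differ. The counts and medians therefore describe the tested members and not all 34, and are not to be read against the background. Clec4e, Clec5a and Clec2i kept their calls in both genotypes under the 3 other scalings, and Clec9a did wherever it was tested. For Clec2i and Clec9a, which had to differ, this adds no support.

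**Figure D3:**
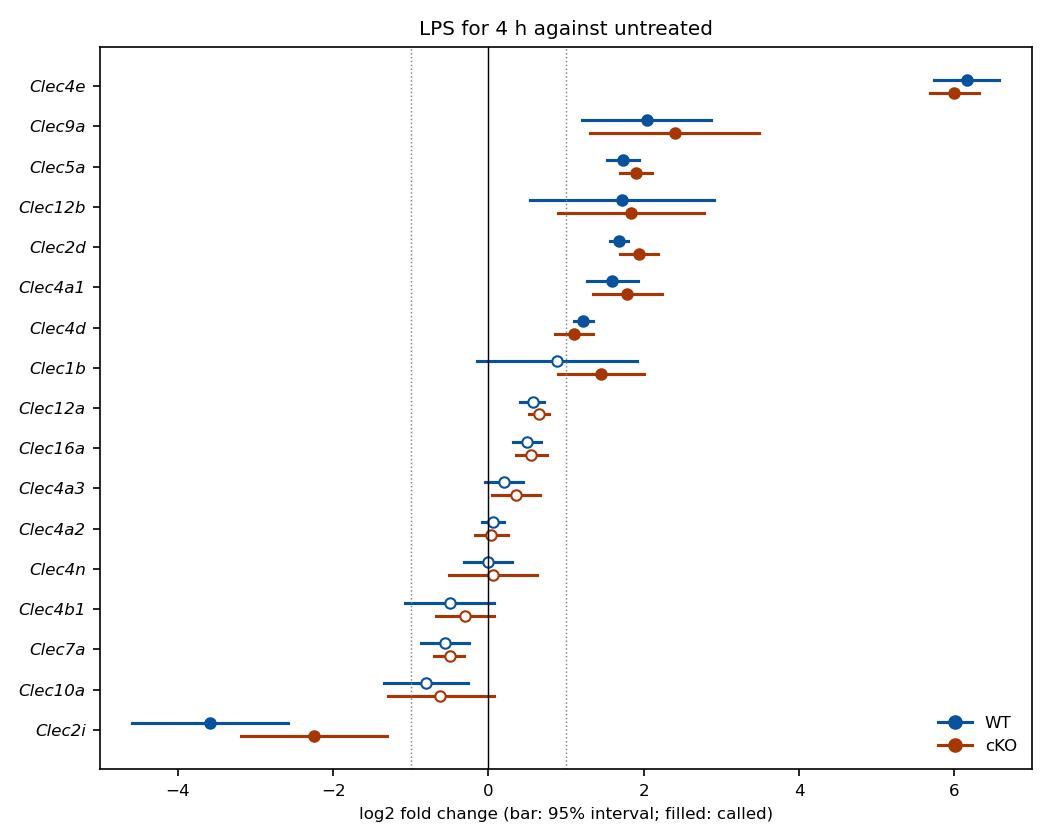
Log2 fold change of LPS against untreated (x axis) for the 17 C-type lectin genes tested in WT (blue) and cKO (brown) cells, 3 libraries per group; bars are 95% intervals, filled points were called, open points were not, and dotted lines mark 2-fold. Clec4e stands apart at 6.16 in WT and 6.00 in cKO, and Clec2i lies at the other end at -3.59 and -2.25.

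Among the activating receptors, Clec4e (Mincle, which binds the mycobacterial glycolipid trehalose dimycolate and signals through the Fc receptor gamma chain) changed most. Untreated WT libraries held 212, 237 and 365 normalized counts, and LPS-treated ones 17711, 17126 and 22250.3. In cKO cells the values were 406, 263 and 331 before and 22403, 19617 and 21070 after LPS. Every treated library lay far above every untreated one. The log2 fold change was 6.16 (SE 0.18, adjusted p = 3.88e-09), or 71.4-fold, in WT and 6.00 (SE 0.14, adjusted p = 4.63e-09) in cKO. It was called in all 14 alternative analyses and with each library left out in turn.

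Clec4d (MCL, which pairs with Mincle) is the next gene along the chromosome, and its 3' end lies 6523 nt from that of Clec4e on the opposite strand. Its untreated levels were 5123, 5234 and 5014 in WT and 4914, 4816 and 5732 in cKO. After LPS they were 12295, 11350 and 12236 in WT and 11058, 9719 and 12451 in cKO, with no overlap. The log2 fold change was 1.22 (SE 0.05) in WT and 1.10 (SE 0.10) in cKO, so both neighbours rose but by very different amounts. The call of Clec4d depends on the scaling: its change stayed positive but under 2-fold with upper quartile scaling (0.96 and 0.83), total reads (0.50 and 0.41) and quantile normalization (0.27 and 0.14).

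To show the sequence in front of Clec4e, Clec5a and Clec2i, whose calls held in every scaling, and of the neighbour of Clec4e, the stretch from 250 bases before to 50 bases after the start of the gene is printed from RefSeq (GRCm38.p6), 5' to 3' on the gene's strand. Capitals mark letters matching a core motif of a factor active in macrophages, searched on both strands except for the TATA box: GGG and CC with 5 bases of any kind between them for NF-kB, TTNNGNAA for C/EBP, TGANTCA for AP-1, GAGGAA for PU.1, a pair of GAAA with 2 bases of any kind between them for ISRE, and TATAAA on the gene's strand. Overlapping matches share one run of capitals. The windows are Clec4e at chr6:123289822-123290121 (minus strand), Clec4d at chr6:123261857-123262156 (plus), Clec5a at chr6:40585756-40586055 (minus) and the first of 2 for Clec2i at chr6:128887337-128887636 (plus).
Clec4e: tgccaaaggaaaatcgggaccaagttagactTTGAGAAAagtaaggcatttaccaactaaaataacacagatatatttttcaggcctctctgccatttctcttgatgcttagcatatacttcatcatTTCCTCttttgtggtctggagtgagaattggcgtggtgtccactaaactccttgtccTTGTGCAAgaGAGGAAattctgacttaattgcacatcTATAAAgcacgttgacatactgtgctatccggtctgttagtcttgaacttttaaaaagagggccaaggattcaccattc
Clec4d: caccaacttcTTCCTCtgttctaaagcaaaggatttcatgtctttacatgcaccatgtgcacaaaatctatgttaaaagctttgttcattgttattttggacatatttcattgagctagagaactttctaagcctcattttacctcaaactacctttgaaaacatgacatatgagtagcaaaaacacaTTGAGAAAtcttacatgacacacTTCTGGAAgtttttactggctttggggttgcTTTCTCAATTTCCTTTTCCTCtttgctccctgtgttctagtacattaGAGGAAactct
Clec5a: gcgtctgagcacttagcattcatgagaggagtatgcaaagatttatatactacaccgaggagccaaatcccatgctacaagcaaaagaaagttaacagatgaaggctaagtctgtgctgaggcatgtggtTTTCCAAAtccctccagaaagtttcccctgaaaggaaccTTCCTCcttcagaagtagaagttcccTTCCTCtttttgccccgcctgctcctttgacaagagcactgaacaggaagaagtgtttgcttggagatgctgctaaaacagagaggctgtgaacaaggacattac
Clec2i: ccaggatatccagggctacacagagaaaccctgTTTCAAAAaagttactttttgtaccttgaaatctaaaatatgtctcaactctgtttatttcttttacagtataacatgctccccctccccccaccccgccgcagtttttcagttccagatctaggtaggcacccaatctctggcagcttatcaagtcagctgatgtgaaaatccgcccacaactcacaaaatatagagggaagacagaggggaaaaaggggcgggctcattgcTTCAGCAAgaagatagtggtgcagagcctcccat
Positions are those of a match's first base from the start of the gene. In the Clec4e window TATAAA lies at -29, GAGGAA at -56, C/EBP matches at -66 and -219, and the PU.1 letters of the other strand at -123. The Clec4d window has C/EBP matches at -62, -39 and -8, an ISRE match at 1 and PU.1 letters at -240, 8 and 40. The Clec5a window has a C/EBP match at -120 and PU.1 letters at -81 and -55, and the Clec2i window has C/EBP matches at -217 and 17, and no other. None of these 4 windows holds the NF-kB letters. The window of Clec9a, a rare gene with few reads, held none of the motifs and is not printed. Windows were given for 26 of the 34 genes (29 windows), and 5 of the 29, or 17.2%, held the NF-kB letters, beside 50.8% of 32851 windows of all genes. The PU.1 letters were in 16 of 29, or 55.2%, beside 28.3%, and the C/EBP letters in 14, or 48.3%, beside 40.7%. Shares for AP-1 (20.7% beside 7.81%), ISRE (10.3% beside 3.44%) and the TATA box (13.8% beside 8.32%) rest on 6, 3 and 4 windows. A match describes letters in a window, and windows of neighbouring paralogs share sequence. Clec4a3, Clec2i and Clec7a each gave 2 overlapping windows, and both of Clec7a held the PU.1 letters. The windows were not matched for base composition, so these shares are not to be read as more or fewer sites in the family.

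Clec5a (MDL-1, which signals through the adaptor DAP12, encoded by Tyrobp) had 486, 445 and 451 normalized counts in untreated WT libraries and 1686, 1593 and 1333 after LPS. In cKO the values were 409, 452 and 381, and then 1565, 1688 and 1397. Groups did not overlap in either genotype. Clec5a rose by 1.73 (SE 0.09, adjusted p = 1.65e-07) on the log2 scale in WT and 1.90 (SE 0.09, adjusted p = 2.63e-07) in cKO.

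Clec7a (Dectin-1, the receptor for fungal beta-glucan) and Clec4n (Dectin-2, which binds mannans) were not called. Clec7a had 5674, 4334 and 4448 normalized counts in untreated WT libraries and 3868, 3227 and 2735 after LPS, all below the untreated ones. In cKO it had 3866, 4414 and 4394, and then 2670, 3149 and 3128. Its log2 fold change was -0.56 (SE 0.13, adjusted p = 0.00431) in WT and -0.50 (SE 0.09, adjusted p = 6.90e-04) in cKO, under 2-fold, and reached -1.29 and -1.19 with total reads and -1.38 and -1.30 with quantile normalization, where it was called. Clec4n was at 322 ± 38.4 (SD, n = 3) before and 322 ± 57.3 after LPS in WT, with a log2 fold change of -0.01 and a 95% interval from -0.32 to 0.30. In cKO its mean was 264 ± 73.8 before and 274 ± 72.3 after, and replicate 2 held the lowest value in both groups, at 187 and 195. Clec4b1 (DCAR), another partner of the Fc receptor gamma chain, had a log2 fold change of -0.50 in WT (interval -1.07 to 0.07) and -0.30 in cKO (interval -0.67 to 0.07). With total reads Clec4b1 was called lower in WT (-1.21), and with quantile normalization its direction turned in cKO (0.02).

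Clec9a (DNGR-1) and Clec1b (CLEC-2) are activating receptors best known from cross-presenting dendritic cells and from platelets, and both were rare here. Clec9a was covered by 15 reads over the 3 untreated WT libraries and 39 over the LPS-treated ones, and by 14 and 48 in cKO. Its normalized counts were 4.15, 3.3 and 3.19 before and 22.5, 12.3 and 19.5 after LPS in WT, and 6.35, 1.71 and 2.15 before and 25.4, 20.9 and 15 after in cKO. It rose by 2.04 (SE 0.37) in WT and 2.40 (SE 0.48) in cKO, with treated libraries all above untreated ones, but fell below the filter without LPS-treated WT replicate 1 or 3 or LPS-treated cKO replicate 1. Clec1b had 10.4, 14.5 and 27.9 before and 16.9, 32.8 and 51.5 after LPS in WT, overlapping, and 12, 18 and 15.8 before and 46, 44.5 and 38.1 after in cKO, not overlapping. It rose in cKO by 1.45 (SE 0.24), a call lost with total reads (0.79), while the change in WT was 0.88 (SE 0.46, adjusted p = 0.11). WT Clec1b was called without untreated replicate 3 (1.25) or LPS-treated replicate 1 (1.29). The difference between the genotypes, tested directly, was 0.57 (SE 0.56, adjusted p = 0.999). Clec1b and Clec9a overlap by 474 nt on the same strand, so reads there cannot be given to one of them. The dendritic cell marker list had sums of 44.5 to 140 in untreated and 173 to 321 in LPS-treated libraries. Flt3, Cd209a, Siglech and Dpp4 stayed between 0 and 4.22, and Itgae was at 4.15 to 18.3. Zbtb46 was at 2.78 to 18.3, with 12, 4.28 and 6.44 in untreated and 15.7, 18.3 and 12.2 in LPS-treated cKO libraries. Xcr1 and Kmo were the list's called genes, both higher with LPS in both genotypes. Xcr1, at 4.19 and 2.8 in untreated WT and cKO, passed the filter through its LPS-treated libraries alone, so it had to differ. In the platelet list Pf4 held nearly all of the sum (7170 to 12417), Gp1bb was at 0 in all libraries and none of its genes was called. The part of other cells in the Clec9a and Clec1b values was not tested.

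Of the inhibitory and DCIR-type receptors, Clec4a1 (DCIR4) rose. It had 1216, 1075 and 1497 normalized counts in untreated WT libraries and 3386, 3438 and 4621 after LPS. In cKO it had 1215, 791 and 1069, and then 4090, 2648 and 3955. Groups were apart in both genotypes, and the log2 fold change was 1.59 (SE 0.14, adjusted p = 6.53e-06) in WT and 1.79 (SE 0.19, adjusted p = 4.09e-05) in cKO. With total reads it was 0.87 in WT, below 2-fold, and 1.11 in cKO. The neighbouring paralogs were not called. Clec4a2 (DCIR, with an ITIM) had 1813 ± 82.8 normalized counts in untreated and 1885 ± 120 in LPS-treated WT cells, a log2 difference of 0.06 with an interval from -0.09 to 0.20, and Clec4a3 was at 1168 ± 113 and 1349 ± 193 (0.20, interval -0.05 to 0.45). In cKO the log2 differences were 0.03 (interval -0.18 to 0.25) for Clec4a2 and 0.35 (interval 0.04 to 0.66, adjusted p = 0.0434) for Clec4a3, under 2-fold, and those of both genes turned to -0.65 and -0.33 with total reads. Clec4a4 (DCIR2) never exceeded 17.7 normalized counts and reached the filter in no comparison. Reads that fit more than 1 of these similar genes could be split or lost in the counting, so their separate levels carry that uncertainty.

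Clec12a (MICL), an ITIM receptor that binds uric acid crystals, was one of the most abundant members, with 8792, 7599 and 8531 normalized counts in untreated WT cells and 12820, 11593 and 12429 after LPS. In cKO the values were 8233, 7942 and 8024, and then 12481, 12565 and 12925. The log2 fold change of 0.57 (SE 0.07) in WT and 0.65 (SE 0.06) in cKO was under 2-fold, and its direction turned to -0.16 and -0.04 with total reads and to -0.41 and -0.28 with quantile normalization. The reads themselves numbered 34927 in untreated and 26539 in LPS-treated WT libraries, so the direction of Clec12a cannot be stated without choosing a scaling. Clec12b, its rare ITIM-bearing neighbour, had 2.08, 5.94 and 9.56 normalized counts in untreated and 11.3, 21.8 and 27.8 in LPS-treated WT libraries, and 10.6, 4.28 and 4.3 and then 30.2, 18.3 and 23.1 in cKO. It rose by 1.72 (SE 0.52, adjusted p = 0.0143) in WT and 1.83 (SE 0.41, adjusted p = 0.00342) in cKO. These values rest on 24 and 44 reads in WT and on 26 and 56 in cKO, and the WT call was lost without LPS-treated replicate 3 (1.46) and with total reads (1.08).

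Both ligands of natural killer receptors that could be measured were called, in opposite directions. Clec2d (Clr-b, the ligand of the inhibitory receptor NKR-P1B) had 1163, 1186 and 1111 normalized counts in untreated WT libraries and 3779, 3579 and 3714 after LPS. In cKO it had 961, 906 and 1132, and then 3925, 3372 and 4183. It rose by 1.68 (SE 0.05, adjusted p = 5.48e-09) in WT and 1.94 (SE 0.11, adjusted p = 4.78e-07) in cKO, and by 0.95 and 1.25 with total reads, the first under 2-fold. Clec2i (Clr-g, a ligand of NKR-P1F) had 51.9, 77.2 and 98 in untreated WT libraries and 4.22, 2.73 and 11.1 after LPS, and 55, 32.5 and 32.9 and then 12.1, 3.92 and 8.17 in cKO. Every treated library was below every untreated one, and Clec2i fell by 3.59 (SE 0.44, adjusted p = 6.13e-05) on the log2 scale in WT and by 2.25 (SE 0.41, adjusted p = 0.00106) in cKO. The reads behind it were 315 and 13 in WT and 162 and 19 in cKO. Clec2i overlaps BC035044 on the opposite strand, and the library kit does not mark strand. BC035044 moved the other way, from 3.22 ± 1.53 to 14.8 ± 2.97 in WT. Clec2g, near Clec2i, had no read in untreated cells of either genotype, 17 in LPS-treated WT and 11 in LPS-treated cKO libraries. Taking 3 reads over the untreated group as the limit a count of 0 allows, and the LPS-treated reads without error, the fold change had a lower bound of 11 in WT and 6.13 in cKO cells. The WT bound was 6.85 without LPS-treated replicate 3, which held 10 of the 17 reads, and the cKO bound was 4.41 without LPS-treated replicate 1. Clec2g overlaps Gm15987, Mir7649 and Gm8778 on the opposite strand, so these reads cannot be given to Clec2g alone. Natural killer cell markers were nearly absent: 4 of 7 (Ncr1, Gzma, Prf1 and Nkg7) were at 0 in all libraries, and the summed level of the list was 0 to 4.28.

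Clec10a (MGL), an endocytic receptor for galactose-type sugars, had 298, 268 and 490 normalized counts in untreated WT libraries and 175, 161 and 255 after LPS, which are all lower. In cKO it had 297, 163 and 181, and then 207, 116 and 101, which overlap. The log2 fold change was -0.81 (SE 0.24, adjusted p = 0.0122) in WT and -0.62 (SE 0.30, adjusted p = 0.0943) in cKO, neither past 2-fold. In WT it was called without LPS-treated replicate 3 (-1.01) and with upper quartile scaling (-1.07), and in both genotypes with total reads (-1.54 and -1.30). Clec16a, whose product acts in autophagy and carries the family's name only, went from 399 ± 25.2 to 562 ± 37 in WT, a log2 fold change of 0.49 (SE 0.08), and from 400.0 ± 7.39 to 587 ± 58.7 in cKO. That turned to -0.23 and -0.14 with total reads.

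The second question was whether the loss of Rasgef1b exons altered any of these genes. In untreated cells 15 of the 34 genes were tested and 0 were called by limma, edgeR or DESeq2, beside 0.193% of 12461 genes with limma. In LPS-treated cells 16 were tested and 0 were called, beside 0.232% of 12504 genes. On the adjusted p alone, 0 members passed in either comparison, beside 0.538% and 0.816% of all genes. With an unadjusted p under 0.05 there were 5 of 15 members in untreated cells, beside 10.8% of all genes, and 0 of 16 in LPS-treated cells, beside 10.6%. edgeR put 5 and DESeq2 put 4 members under that value in untreated cells, and neither put any there after LPS. Libraries of the 2 genotypes did not overlap for 1 of 15 members in untreated cells, beside 16.4% of all genes, and for 0 of 16 after LPS, beside 16.1%. The 1 member was Clec4b1, with 90.7, 87.8 and 79.7 normalized counts in WT and 131, 100 and 97.4 in cKO. It showed a log2 difference of 0.33 (cKO against WT, interval 0.01 to 0.66, adjusted p = 0.45), and 0.53 after LPS (interval -0.03 to 1.10).

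The largest difference between genotypes was that of Clec2i in untreated cells, at -0.90 (interval -1.53 to -0.26, adjusted p = 0.256), where the highest cKO library (55) overlapped the lowest WT library (51.9). Clec10a followed, at -0.72 (interval -1.33 to -0.10, adjusted p = 0.376) in untreated and -0.52 (interval -1.09 to 0.06) in LPS-treated cells, with WT replicate 3 the highest of its group in both. Clec4a3 (-0.30, interval -0.57 to -0.03) and Clec2d (-0.21, interval -0.40 to -0.02) were the other members with an unadjusted p under 0.05 in untreated cells. For the abundant members the intervals were narrow. Clec4d differed by 0.00 (interval -0.16 to 0.17) in untreated and -0.12 (interval -0.32 to 0.08) in LPS-treated cells, and Clec12a by -0.04 (interval -0.19 to 0.11) and 0.04 (interval -0.10 to 0.19). Clec4e differed by 0.31 (interval -0.18 to 0.81) before and 0.15 (interval -0.08 to 0.38) after LPS. Untreated cKO replicate 2, the library with more ribosomal RNA, held the lowest value of its group for 11 of the 18 members, and LPS-treated cKO replicate 2 did for 9 of 18. In WT, replicate 2 was the lowest for 8 of 18 members untreated and 9 of 18 with LPS. Without untreated cKO replicate 2 the count of members called between genotypes stayed at 0, and 9 were still called for LPS in cKO cells.

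**Figure D4:**
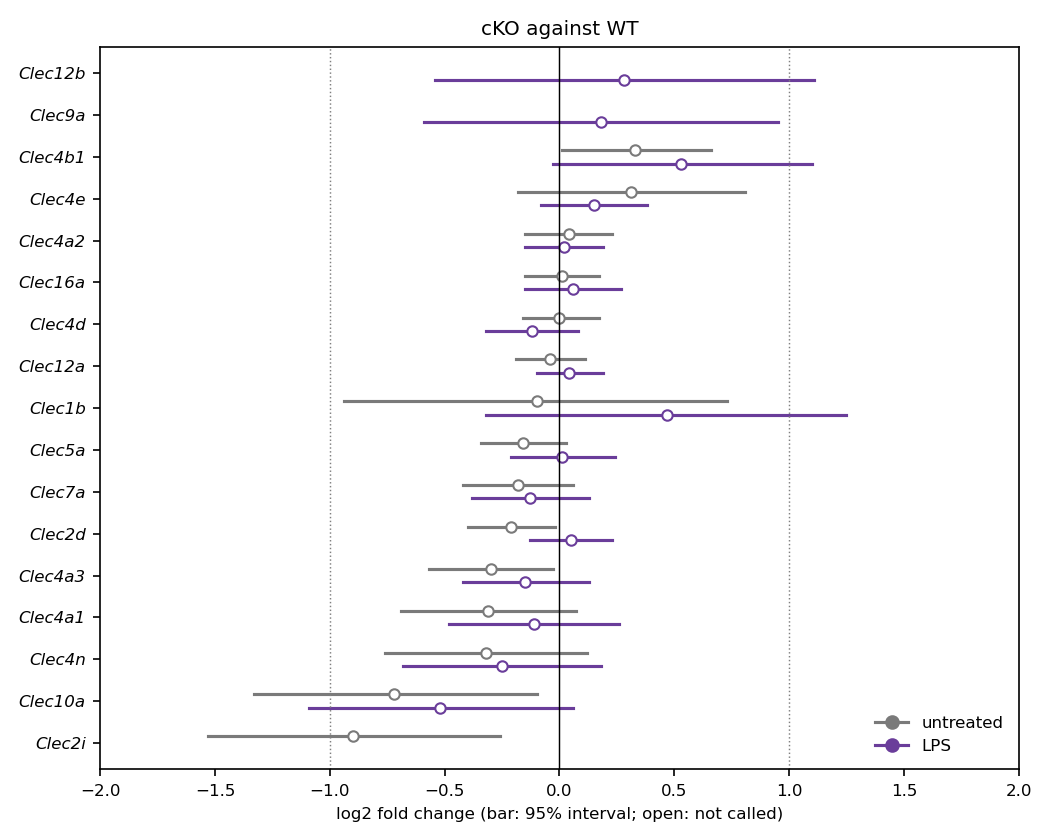
Log2 fold change of cKO against WT (x axis) for the C-type lectin genes tested in untreated cells (grey, 15 genes) and LPS-treated cells (purple, 16 genes), 3 libraries per group; bars are 95% intervals, open points were not called, and dotted lines mark 2-fold. No point reaches 2-fold, and Clec2i in untreated cells is the farthest from 0, at -0.90.

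The last comparison asked whether the response to LPS differed between genotypes, tested as an interaction over the 12 libraries. Of 17 members tested 0 had an adjusted p under 0.05, beside 0.00787% of 12711 genes with limma, and 0 were called by edgeR or by DESeq2. With limma 0 members had an unadjusted p under 0.05, beside 4.22% of all genes. The widest difference was that of Clec2i, which fell less far in cKO, by 1.34 on the log2 scale (interval -0.07 to 2.75, adjusted p = 0.999). Clec2d differed by 0.26 (interval -0.01 to 0.53) and Clec4e by -0.16 (interval -0.73 to 0.41). At 3 libraries per group these intervals leave room for a difference of 2-fold for rare members such as Clec2i, but not for Clec2d or Clec4e.

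The signalling partners of these receptors were followed through lists of genes. Of 17 activating adaptors and kinases, 7 rose and 1 fell in each genotype, beside the 17.1% and 16.9% of all genes called higher and lower in WT and the 17.3% and 16.6% in cKO given above. Of these, 6 rose and 1 fell in both, Fcer1g was called in WT and not in cKO, and Fyn in cKO and not in WT, with an adjusted p of 0.999 for the interaction of each. Their median log2 fold change was 0.83 in WT and 0.82 in cKO. Src rose from 92.5 ± 11.8 to 4651 ± 173 normalized counts in WT (log2 fold change 5.64) and the adaptor gene Lcp2 from 853 ± 10.7 to 11538 ± 385 (3.76). Vav2, an exchange factor, fell from 605 ± 27.1 to 83.2 ± 10.2. In cKO the log2 fold changes of Src, Lcp2 and Vav2 were 5.48, 3.72 and -2.72. With each of the 3 other scalings 5 genes of this list rose in each genotype, and with total reads 3 fell in WT and 2 in cKO.

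Of the 11 genes around Card9, 3 rose and 1 fell in WT, and 4 rose and 1 fell in cKO, beside those same shares of all genes. Malt1, the paracaspase of this module, rose by 3.37 in WT and 3.56 in cKO on the log2 scale, and the deubiquitinase genes Otud1 (2.90 and 2.60) and Usp15 (1.63 and 1.63) rose as well. Card9 itself went from 816, 768 and 841 to 424, 404 and 426 normalized counts in WT and from 837, 704 and 806 to 368, 387 and 314 in cKO. Its log2 fold change of -0.95 in WT was just under 2-fold and that of -1.13 in cKO was called, while for Map3k14 the values were -1.16, called, and -0.93. With upper quartile scaling 3 genes of this list rose and 3 fell in each genotype.

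Of 10 genes listed as negative regulators, 2 rose and 2 fell in WT, and 2 rose and 3 fell in cKO, beside 33.9% and 33.8% of all genes called in either direction. Inpp5d, which encodes the inositol phosphatase SHIP-1, fell from 4169 ± 197 to 679 ± 82.2 in WT (log2 fold change -2.62) and by 3.00 in cKO, and the adaptor gene Dok2 fell by 1.23 and 1.29. Ptpn6, the phosphatase gene named among the partners of ITIM receptors, rose by 1.22 and 1.23, a call that no other scaling kept: none of the 10 genes was called higher under any of the 3. Sh3bp2 rose from 3034 ± 180 to 6078 ± 50.8 normalized counts in WT, and Rubcn fell by 1.03 in cKO. Sh3bp2 is an adaptor gene and not an established negative regulator, so its rise is not to be read as that of one. No gene of these 3 lists was called between genotypes or for the interaction.

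Among 44 other genes with a C-type lectin domain and no Clec symbol of this form, 15 could be tested for LPS in each genotype; 7 rose and 1 fell in WT, and 8 rose and 1 fell in cKO. Olr1, Klrk1, Sele and Selp in both genotypes, and Ly75 in cKO, passed the filter through their LPS-treated libraries alone, so they had to differ and these counts are not to be read against the background. Cd69 went from 16.9 ± 4.96 to 33965 ± 1335 normalized counts in WT, a log2 fold change of 10.92, and 10.17 in cKO. Olr1, the scavenger receptor for oxidized lipoprotein, changed by 7.79 and 8.63, Klrk1, which encodes NKG2D, by 7.70 and 8.28, and Sele, E-selectin, by 6.50 and 6.06. The number of this list called higher was 7 in WT and 8 in cKO under each of the 3 other scalings too. Between genotypes 0 genes of this list were called, but Colec12 was higher in cKO by 0.72 (SE 0.12) in untreated (adjusted p = 0.0427) and in LPS-treated cells (adjusted p = 0.0299), under 2-fold; it was chosen for mention after its values were seen. Some genes on the marker lists of other cells also moved with LPS. The endothelial list of 7 genes had sums of 90.9 to 151 in untreated and 811 to 1292 in LPS-treated libraries, none of them at 0 throughout. Tek, Tie1 and Emcn stayed between 0 and 4.08 in every library. The 3 that could be tested rose, Kdr by 2.95 in WT and 3.56 in cKO, Pecam1 by 3.76 and 3.54 and Cdh5 by 1.44 and 1.52. Pecam1, at 6.41 and 7.43 in untreated WT and cKO, passed the filter through its LPS-treated libraries alone. It therefore had to differ, and this count is not to be read against the background. The T cell list of 8 genes had sums of 114 to 253 and 774 to 1521, with Cd3d at 0 throughout, and Lck was its 1 called gene (8.09 and 7.82). Cd3e, Cd3g, Cd8a and Trac stayed between 0 and 1.71, and Cd4 was at 105 to 245 untreated and 83.5 to 173 with LPS. The rise of the sum was thus that of Lck. Lck, at 3.33 and 3.26 in untreated WT and cKO, passed the filter through its LPS-treated libraries alone, so it had to differ. In the fibroblast list of 8 genes only Pdgfrb was called (3.51 and 4.04). Pdgfrb, at 2.74 and 2.18 in untreated WT and cKO, passed the filter through its LPS-treated libraries alone, so it had to differ. Sums of the neutrophil list of 10 genes were 264 to 632 untreated and 327 to 1257 with LPS. Its 1 called gene was S100a8 in cKO (1.07), at 121, 53.9 and 76.6 untreated and 306, 120 and 129 with LPS, which overlap. The part of other cells in the values of Klrk1, Sele and the Clec genes was not tested.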

How the data were processed

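Poly(A) RNA of 12 BMDM libraries (3 per group) was sequenced in pairs with a kit that does not mark strand. The authors trimmed reads (Trimmomatic 0.39), aligned them to GRCm38 (STAR 2.7.4a), counted them per gene (featureCounts, Subread 2.0.1) and deposited counts divided by DESeq2 size factors, so the deposited unit is a normalized signal per gene and not a raw count. Each value was a whole multiple of its library's smallest value in 100.0% of cases (within 1e-06 reads), so whole reads were recovered and used in edgeR (4.0.16) and DESeq2 (1.42.0) as alternatives. The main test was limma (3.58.1, R 4.3.3) with a variance trend on log2(normalized count + 1), for genes with a mean of at least 10, so a fold change is on that scale and understates low genes. Groups came from the sample titles. Standard errors, intervals and p-values measure the spread between 3 libraries. Named were all members, those called library by library, and up to 4 called genes with the largest change per partner list, of which 1 is not reported here. The members and lists were chosen with earlier results of these data known. Scripts were tested on simulated counts.

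Same-numbered untreated and LPS-treated libraries of a genotype deviated together (correlation of deviations over genes 0.167 to 0.331 in the 6 pairs), so numbers were taken as pairs within a genotype, and a fit with that replicate block was run. Differently numbered libraries of a genotype stood at -0.244 to 0.0107. Between genotypes, differently numbered libraries ranged from -0.276 to 0.268, so values as high as those of some pairs also occurred without a shared number or genotype. Further alternatives were other pseudocounts (0.5 and 5), filters, scalings, variance models, all 12 libraries in one fit, and leaving out each library.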

Additional observations from a re-analysis of the deposited data

How the results depend on the processing

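The number of members called for LPS was 8 in WT and 9 in cKO, and 5 in each genotype with a mean of at least 50 required, since rare members are then not tested. Leaving out each library in turn gave 7 to 9 in WT and 8 to 9 in cKO. The replicate block, the pairing of same-numbered libraries, changed no call for LPS, with 8 and 9 members. Between genotypes the block joined equal numbers of WT and cKO, which are not pairs, so its 0 calls there add no support. For the interaction 0 were called with that block, and 0 with the block within genotype, chosen after seeing the data. edgeR and DESeq2 called 8 and 9, total reads 6 and 9, upper quartile scaling 8 and 8, quantile normalization 8 and 9, and no filter 10 and 10. In WT the split of higher against lower calls went from 7 and 1 to 2 and 4 with total reads, and in cKO from 8 and 1 to 6 and 3. Clec4e, Clec5a, Clec2d, Clec4a1 and Clec4d kept their direction in all alternatives run.

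The median log2 fold change of all genes for LPS shifted downward with each of the 3 other scalings. Single members could move further. With quantile normalization Clec12a in WT went from 0.57 to -0.41, beside a median shift of -0.13. What part the shift had in a change of direction was not tested. Directions that turned belong to members not called in the main analysis. In WT they were Clec4a3 with upper quartile (-0.06), total reads (-0.52) and quantile (-0.13), Clec4a2 (-0.20, -0.67 and -0.46), Clec12a with total reads (-0.16) and quantile (-0.41), Clec16a with total reads (-0.23), and Clec4n with quantile (0.14), DESeq2 (0.01) and single libraries left out (-0.15 to 0.09). In cKO they were Clec4a3 with total reads (-0.33), Clec4b1 with quantile (0.02), Clec4a2 with the same 3 scalings (-0.24, -0.65 and -0.48) and single libraries left out (-0.06 to 0.09), Clec4n with upper quartile (-0.22), total reads (-0.63) and single libraries left out (-0.17 to 0.28), Clec12a with total reads (-0.04) and quantile (-0.28), and Clec16a with total reads (-0.14). For Clec4n with quantile and DESeq2 and Clec4b1 with quantile the turn was upward, and the cause was not tested. Members with few reads (Clec9a, Clec12b, Clec1b and Clec2i after LPS) have wide intervals at this depth.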
